A study of Homo sapiens with 8 samples.

Results

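Interleukins, chemokines and their receptors were examined in total RNA of the Hodgkin lymphoma cell line L1236 and in its RNA bound to Argonaute 2 (Ago2). A gene belonged to the set if its symbol was IL followed by a digit, or CCL, CXCL, CCR or CXCR followed by a digit, with ILF and ILK left out. Of the 16554 genes that could be named on the array, 134 met this rule, with 173 probes, and 64 of them gave a usable signal. The rule reads gene symbols alone and no array values, but it was chosen with earlier results of these data known.

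The cells were transduced with the pMSCV-PIG vector, either empty (EV) or carrying a sponge for miR-155 (sponge), and the cells positive for GFP were sorted. A sponge is a transcript with binding sites that competes with natural targets for a microRNA. For each of these 2 populations, total RNA (T) and the RNA precipitated with an antibody against Ago2 (IP) were hybridised to two-colour arrays, each labelled once with Cy3 and once with Cy5, so that 4 arrays gave 8 channels. Each group (EV T, EV IP, sponge T and sponge IP) held 1 RNA sample, no group was repeated and no difference was tested. For an IP/T ratio the error given is the SD between the 2 dye orientations, and for a signal or for a change between EV and sponge cells it is that between Cy3 and Cy5. They cover labelling and hybridisation only and leave out the spread between cultures and between precipitations. The populations were hybridised on different arrays of 1 slide, so that population and array cannot be told apart in the changes. All cells came from 1 line, and RNA precipitated with a control antibody was not analysed here.

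Interleukins and chemokines are secreted proteins through which immune cells act on each other. Interleukins bind receptors built from a ligand-specific chain and often a shared chain, and chemokines bind G protein-coupled receptors and guide cell migration. In Hodgkin lymphoma the few tumour cells, called Reed-Sternberg cells, are surrounded by immune cells that their cytokines attract. Many cytokine transcripts are short-lived, and microRNAs carried by Ago2 are among the regulators that act on them. Over the 8 channels of T and IP together, all 7 of 7 markers of Reed-Sternberg cells were kept, among them TNFRSF8, the gene of the CD30 receptor. Another of the 7, CCL17, belongs to the set examined here. Of all named genes on the array, 67.7% were kept. Of the B cell markers 4 of 6 were kept, whereas MS4A1 and CD22 were detected in no channel. None of 5 T cell markers was kept, although CD3E was above background in all 8 channels and CD8A in 7, with dyes that differed by over 2-fold, and of 4 monocyte markers on the array CD14 alone was kept.

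The mature sequences of the microRNA that the sponge was built against are shown first, since the comparison of EV with sponge cells turns on it. They were taken from RefSeq (GRCh38.p14), where the 5p arm lies at chr21:25573983-25574006 and the 3p arm at chr21:25574022-25574043, both on the plus strand. Capitals mark the seed, bases 2 to 8, by which a microRNA pairs with its targets.
hsa-miR-155-5p: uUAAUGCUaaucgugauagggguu
hsa-miR-155-3p: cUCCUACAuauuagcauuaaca
The arms share no seed. Sites for these seeds in the cytokine transcripts were not analysed here.

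A signal is the log2 quantile-normalised intensity of a probe in 1 channel. Kept probes had to exceed background clearly in 4 or more of the 8 channels, with Cy3 and Cy5 within 2-fold of each other in every RNA sample, and each gene is represented by the brightest of its kept probes. Of the 134 genes, 64 (47.8%) were kept, against 67.7% of all named genes on the array. A further 9 genes were lost because the dyes differed, 11 were above background in 1 to 3 channels and 50 in no channel. The kept genes comprised 15 of 38 interleukins, 24 of 39 interleukin receptors, 12 of 23 CC chemokines, 4 of 9 CC receptors, 3 of 13 CXC chemokines, 4 of 6 CXC receptors and 2 of 5 antagonists, binding proteins and enzymes. The remaining transcript, CXCR2P1, is a pseudogene and was not detected. Of the 64 kept genes, 51 were well above background in all 8 channels, whereas IL1A and CCR6 were kept through the IP channels alone.

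**Figure D1:**
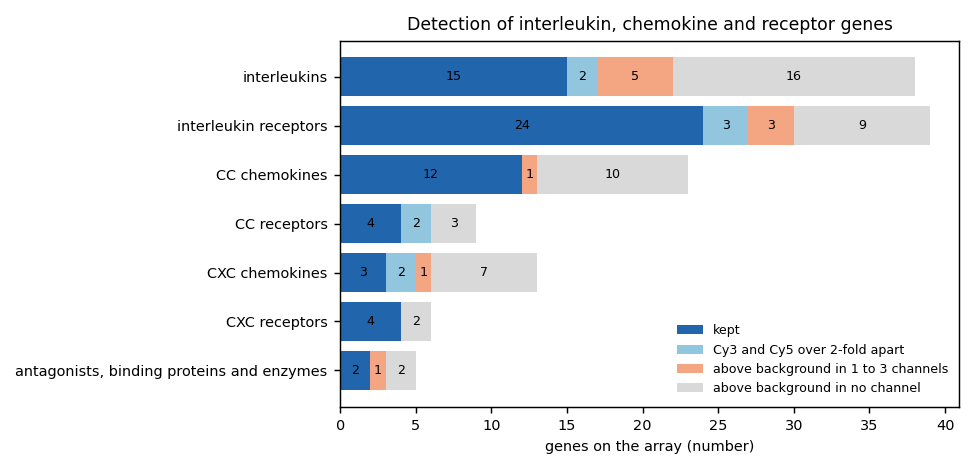
Number of genes on the array in each role class (horizontal axis, genes), split by detection in the 8 channels. The interleukin receptors had 24 of 39 genes kept and the CXC chemokines 3 of 13, with 7 of these 13 above background in no channel.

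Several well-known cytokines gave no signal. IL1B, IL2, IL3, IL5, IL9, IL12B, IL18, IL21 and IL22 were above background in no channel, as were CXCL8, CXCL9, CXCL13, CCL18 and CCL20. The receptors CCR1, CCR8, CXCR2, IL7R and IL23R were likewise not detected. IL10, IL2RA and IL6R were above background in only 1 to 3 channels. Among the genes with unequal dyes were IL6ST, the signal-transducing chain of the IL6 receptor family, and CCR4, the receptor of CCL17 and CCL22. IL6ST and CCR4 were above background in 4 or more channels and were left out for their dyes alone. The genes above background in no channel were not detectable at this signal, which does not show that they were absent. Of 24 genes commonly described in Reed-Sternberg cells, 13 were kept, 7 were detected in no channel, 3 in 1 to 3 channels and 1 (IL15) had no probe that could be named.

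The 5 brightest probes belonged to CCL17, CCR7, IL1R2, IL4I1 and CCL2, as values of each probe and not as an order of transcript amounts. CCL17 (TARC), which attracts T cells that carry CCR4, had signals in EV T of 17.77 (Cy3) and 17.54 (Cy5), in EV IP of 17.09 and 16.84, in sponge T of 18.05 and 17.94 and in sponge IP of 17.34 and 17.19. All 4 IP values lay below all 4 T values. CCR7, the receptor that draws lymphocytes to lymph nodes, had 15.78 and 15.79 in EV T, 18.87 and 18.59 in EV IP, 15.78 and 15.95 in sponge T and 18.64 and 18.48 in sponge IP. Here all 4 IP values lay above all 4 T values. IL1R2, a decoy receptor that binds IL1 without signalling, had group means of 15.76 ± 0.14 in EV T and 16.73 ± 0.17 in EV IP. IL4I1, a secreted enzyme that oxidises amino acids, had 15.67 ± 0.05 and 16.39 ± 0.21.

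**Figure D2:**
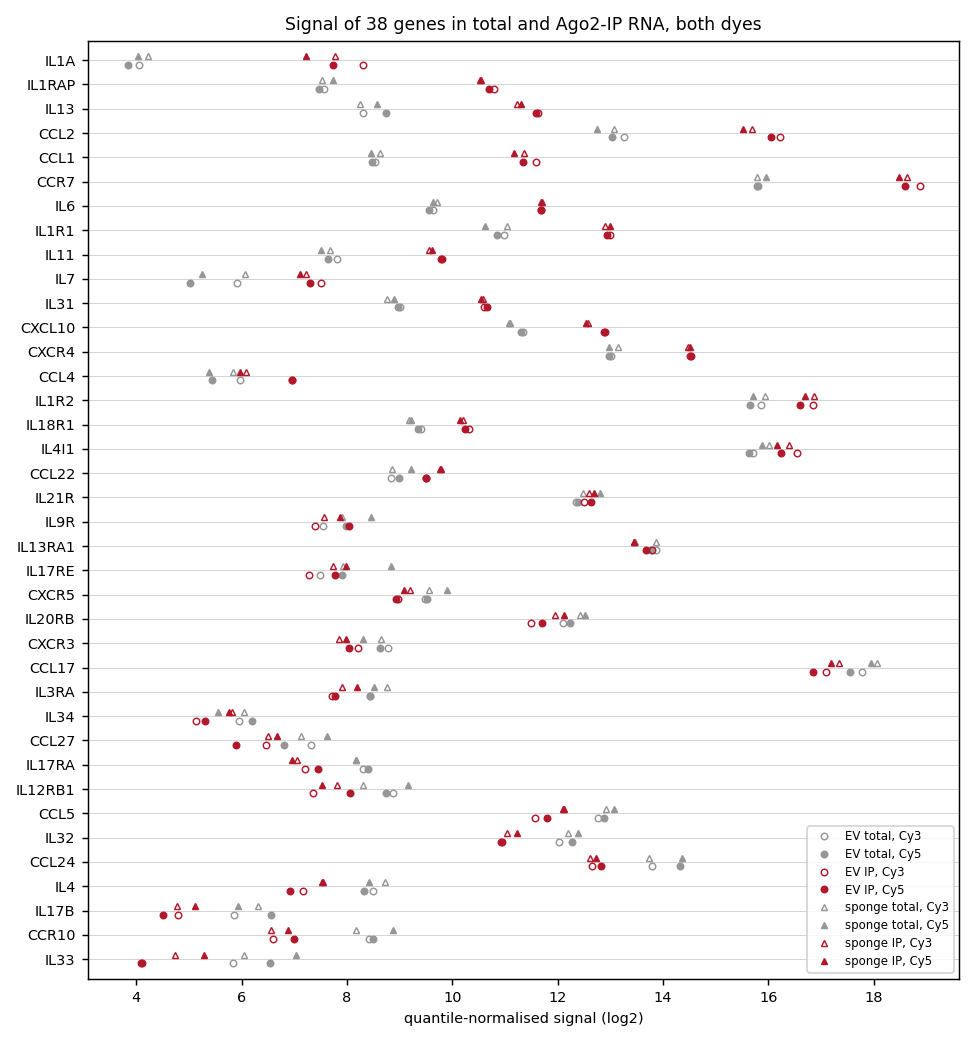
Signals (horizontal axis, log2 quantile-normalised intensity) of the 38 genes named by rule, ordered by IP/T in EV cells, with circles for EV cells, triangles for sponge cells, grey for total RNA, red for IP RNA, open symbols for Cy3 and filled symbols for Cy5. For CCR7 the red points lie near 18.6 and the grey points near 15.8, and for CCL17 the order is turned.

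To see which of these transcripts were concentrated in the Ago2 fraction, IP/T was compared with 2-fold limits. In EV cells, 21 of the 64 kept genes (32.8%) had IP/T of 2 or more, against 18.1% of the 11199 named genes kept. These 21 include IL1A and CCR6, which passed through IP alone and whose bounds in EV cells (at least 1.53-fold and at least 1.13-fold) do not reach 2-fold. Among genes above background in all 4 EV channels, 16 of 53 (30.2%) had IP/T of 2 or more, against 17.5% of 10767. In sponge cells 19 of the 64 kept genes (29.7%) had IP/T of 2 or more, against 17.8% of all kept genes. They again include IL1A and CCR6, with bounds of at least 1.24-fold and at least 1.07-fold. T/IP was 2 or more for 10 genes in EV cells (15.6%, against 18.8%) and for 8 in sponge cells (against 17.4%). Both populations shared 19 of the enriched genes (29.7% of the 64), against 16.5% of all kept genes enriched in both. They shared 8 of the depleted genes (8 of the 64), against 15.3% of all kept genes depleted in both. Of the 19 shared enriched genes, 16 had T above background in all 4 channels, and IL1A and CCR6 in no channel. Of the 8 shared depleted genes, 6 had IP above background in all 4 channels, the others being IL33 and IL17B. Among the 30 kept ligands 12 were enriched in EV cells and 6 depleted, and among the 32 kept receptors 9 and 4. The genes had a median log2 IP/T of 0.18 ± 0.27 (EV) and 0.05 ± 0.19 (sponge), against -0.16 ± 0.03 and -0.14 ± 0.04 over all kept genes. Background correction changed these counts: with normexp, loess and Aquantile normalisation 13 genes were enriched and 1 was depleted in EV cells, and 10 and 1 in sponge cells. Normexp followed by quantile normalisation gave 10 and 3 in EV cells, and 10 and 1 in sponge cells. Under the former the median log2 IP/T of all genes in EV cells moved from -0.16 to -0.01, and under the latter to -0.06. That of the 64 genes moved from 0.18 to 0.08 and to 0.04. The share of all kept genes past 2-fold under these corrections is not given here. The corrected counts therefore cannot be set against 18.1%, and whether the excess of enriched genes remains was not tested.

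**Figure D3:**
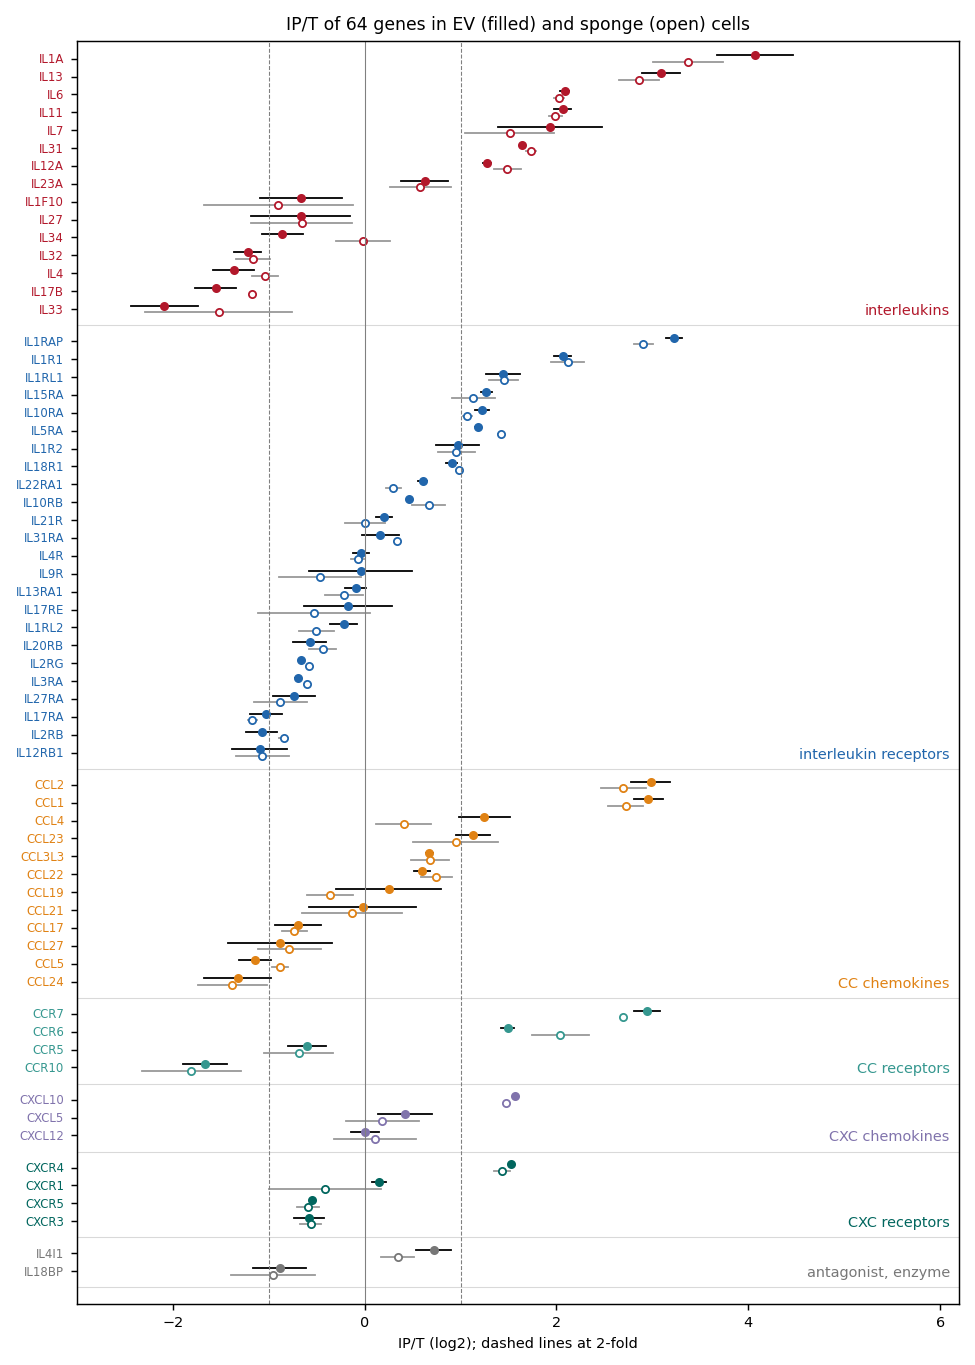
IP/T (horizontal axis, log2) of the 64 kept genes by role class, filled for EV and open for sponge cells, with lines that join both dye orientations and dashed lines at 2-fold. Among interleukins above background in all 4 EV channels the values reached from 3.09 (IL13) to -1.36 (IL4), those of IL1A and IL33 being only bounded by background, and among interleukin receptors from 3.22 (IL1RAP) to -1.09 (IL12RB1).

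Of the interleukins, 7 of 15 were enriched and 4 depleted in EV cells, against 18.1% and 18.8% of all kept genes. The 7 include IL1A and the 4 include IL33 and IL17B, whose bounds do not reach 2-fold. IL13, a cytokine that drives type 2 immunity and was described as a growth factor of Reed-Sternberg cells, had T signals of 8.30 and 8.73 in EV cells and of 8.24 and 8.57 in sponge cells. Its IP signals were 11.62 and 11.59 in EV cells and 11.22 and 11.31 in sponge cells. All IP values were higher than all T values, by 8.50-fold for EV (log2 3.09 ± 0.28) and 7.27-fold for sponge cells (2.86 ± 0.29). IL6, which acts on B cells and on the acute phase response, had T signals from 9.55 to 9.71 and IP signals from 11.68 to 11.71 in both populations. IP exceeded T in every channel, with log2 ratios of 2.09 ± 0.06 (EV) and 2.03 ± 0.07 (sponge). IL11, which signals through the same shared chain as IL6, had 2.06 ± 0.12 and 1.99 ± 0.09. IL31, a cytokine of T cells linked to itch, had 1.64 ± 0.01 and 1.73 ± 0.07. IL12A, a subunit of IL12 and IL35, had 1.28 ± 0.06 and 1.49 ± 0.20. Over the settings tried, the lowest EV value was 1.74 for IL13, 1.41 for IL6, 0.89 for IL11 and 0.98 for IL31. Those of IL11 and IL31 are under 2-fold.

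Enrichment of the other interleukins rested on dim total RNA. IL1A, an alarmin of the IL1 family, had computed log2 IP/T values of 4.07 ± 0.55 (EV) and 3.37 ± 0.52 (sponge), which are bounded only. Its T signals, between 3.84 and 4.22, were well above background in no channel, so that its IP was at least 1.53-fold above T in EV cells and at least 1.24-fold in sponge cells. IL7, a survival factor of lymphocytes, had 1.93 ± 0.77 and 1.51 ± 0.66, with T above background in 1 of 2 channels of each population.

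IL33, IL17B, IL4 and IL32 lay at the other end. IL32, an intracellular and secreted proinflammatory protein, had T signals of 12.03 and 12.28 in EV cells and 12.20 and 12.38 in sponge cells, and IP signals of 10.91 and 10.95 and of 11.04 and 11.22. Every T value exceeded every IP value, with log2 IP/T of -1.22 ± 0.20 and -1.16 ± 0.25. IL4, the type 2 cytokine related to IL13, had -1.36 ± 0.30 in EV and -1.04 ± 0.19 in sponge cells. Over the settings tried, its EV value reached from -1.41 to -0.31 and that of IL32 from -1.32 to -0.92. IL4 and IL13, neighbours in the type 2 cytokine cluster, thus lay on opposite sides of 0. IL33, an alarmin like IL1A, had -2.09 ± 0.50 and -1.52 ± 1.09, and IL17B, a member of the IL17 family, had -1.55 ± 0.31 and -1.17 ± 0.03. IP was above background in no EV channel for either, and T was at least 1.08-fold (IL33) and at least 1.14-fold (IL17B) above IP in EV cells.

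The interleukin receptors had 6 of 24 genes enriched and 3 depleted in EV cells, against 18.1% and 18.8% of all kept genes. IL1RAP, the accessory chain shared by the receptors of IL1, IL33 and IL36, had T signals of 7.56 and 7.48 in EV cells and 7.52 and 7.74 in sponge cells. Its IP signals were 10.78 and 10.71, and 10.55 and 10.52. The groups T and IP did not overlap, with ratios of 9.35-fold for EV (log2 3.22 ± 0.12) and 7.49-fold for sponge cells (2.91 ± 0.14). Its other kept probe had 3.86 ± 0.14 in EV cells. Over the settings tried, log2 IP/T of IL1RAP reached down to 1.49 in EV and 1.01 in sponge cells. IL1R1, the signalling receptor of IL1, had 2.06 ± 0.13 and 2.12 ± 0.24, and IL1RL1 (ST2), the receptor of IL33, had 1.44 ± 0.25 and 1.45 ± 0.21. IL18R1, another member of this receptor family, had 0.91 ± 0.08 and 0.99 ± 0.01, just under 2-fold. IL1RL2, the receptor of IL36, had -0.22 ± 0.20 and -0.50 ± 0.26. For IL1R2 the kept probes differed, at 0.97 ± 0.32 and -0.06 ± 0.05 in EV cells.

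The other enriched interleukin receptors were IL15RA (1.27 ± 0.08 in EV cells), which presents IL15, IL10RA (1.22 ± 0.10), the ligand-binding chain for IL10, and IL5RA (1.18 ± 0.04), the specific chain for IL5. The kept probes of IL10RA reached from 0.77 to 1.22, so that the call depends on the probe. The shared chain of the receptors for IL2, IL4, IL7 and IL15, IL2RG, lay at -0.66 ± 0.00 in EV and -0.58 ± 0.00 in sponge cells. IL2RB, the partner of IL2RG, had -1.07 ± 0.22 and -0.84 ± 0.07. IL17RA, the common chain for the IL17 family, had -1.03 ± 0.24 and -1.17 ± 0.06. IL12RB1, a chain for IL12 and IL23, had -1.09 ± 0.40 and -1.06 ± 0.39, and its other kept probe had -0.55 ± 0.98 in EV cells. Over the settings tried, the EV values reached from -1.10 to -0.31 for IL17RA and from -1.52 to -0.28 for IL12RB1.

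The receptor chains that carry IL4 and IL13 signals were near 0. IL4R had -0.04 ± 0.12 and -0.07 ± 0.10, and IL13RA1 had -0.09 ± 0.15 and -0.22 ± 0.28. For IL13RA1 the 3 kept probes reached from -0.09 to 0.38 in EV cells. IL21R had 0.20 ± 0.12 and -0.00 ± 0.29. IL3RA (CD123) had -0.70 ± 0.05 and -0.60 ± 0.03, while its other kept probe had -0.00 ± 0.04 in EV cells. Over the 12 kept genes with more than 1 kept probe, the range of log2 IP/T between probes had a median of 0.47 and reached 1.05 (IL18BP).

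Among the 12 CC chemokines, 4 were enriched in EV cells and 2 depleted, against 18.1% and 18.8% of all kept genes. CCL2 (MCP-1), which attracts monocytes, had T signals of 13.27 and 13.04 in EV cells and 13.07 and 12.75 in sponge cells. Its IP signals were 16.22 and 16.05, and 15.68 and 15.53. IP lay above T in every channel, by 7.90-fold in EV cells (log2 2.98 ± 0.29) and by 6.48-fold in sponge cells (2.70 ± 0.34). CCL1, the ligand of CCR8, had 2.96 ± 0.21 and 2.72 ± 0.26. Over the settings tried, CCL1 reached down to 1.76 (EV) and 1.40 (sponge), and CCL2 to 2.92 and 2.62. CCL4 (MIP-1β) had 1.25 ± 0.38 (EV) and 0.41 ± 0.40 (sponge), and CCL23 had 1.13 ± 0.25 and 0.95 ± 0.63. Both were dim in T, with 1 of 2 channels above background in EV cells. In sponge cells T of CCL23 was above background in no channel, and its IP was at least 1.01-fold above it.

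The Hodgkin-associated chemokines of the CC class were not enriched. CCL22 (MDC), like CCL17 a ligand of CCR4, had IP/T on the log2 scale of 0.60 ± 0.11 (EV) and 0.75 ± 0.23 (sponge). CCL17 had -0.69 ± 0.34 and -0.73 ± 0.18. CCL5 (RANTES) had T signals of 12.76 and 12.88 in EV cells and 12.91 and 13.06 in sponge cells, and IP signals of 11.57 and 11.79, and of 12.10 and 12.11. T exceeded IP in every channel, with log2 IP/T of -1.14 ± 0.24 (EV) and -0.88 ± 0.12 (sponge). CCL24 (eotaxin-2), which attracts eosinophils, had -1.32 ± 0.50 and -1.38 ± 0.51. CCL3L3 (0.67 ± 0.05 in EV cells) and CCL4 have near-identical copies in the genome, which these probes may also have measured.

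CXCL10 (IP-10), an interferon-induced ligand of CXCR3, was the 1 CXC chemokine of 3 with IP/T above 2-fold (EV: 18.1% of all kept genes). It had T signals of 11.34 and 11.31 in EV cells and 11.08 and 11.09 in sponge cells, and IP signals of 12.88 and 12.90, and of 12.57 and 12.54. Log2 IP/T was 1.57 ± 0.01 and 1.47 ± 0.02. CXCL5 had 0.42 ± 0.40 in EV cells and CXCL12 had 0.01 ± 0.21.

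The chemokine receptors were divided. CCR7 had IP/T of 7.69-fold in EV cells (log2 2.94 ± 0.19) and 6.48-fold in sponge cells (2.70 ± 0.01), and its ligands CCL19 (0.25 ± 0.78 in EV cells) and CCL21 (-0.02 ± 0.79) were dim or unequal between orientations. CXCR4, the receptor of CXCL12, had T signals from 12.97 to 13.15 and IP signals from 14.48 to 14.53 in both populations, with log2 IP/T of 1.53 ± 0.03 and 1.43 ± 0.11. CCR6 had 1.49 ± 0.10 and 2.04 ± 0.41, with T above background in no channel and IP at least 1.13-fold (EV) and at least 1.07-fold (sponge) above it. CXCR5, which guides B cells to follicles, had -0.55 ± 0.00 and -0.59 ± 0.17. CXCR3 had -0.58 ± 0.22 and -0.56 ± 0.16. CCR10, the receptor of CCL27 and CCL28, was the most depleted receptor in both populations, with T signals of 8.42 and 8.49 and IP signals of 6.59 and 6.99 in EV cells and log2 IP/T of -1.67 ± 0.33 and -1.81 ± 0.73. Over the settings tried, its values reached from -1.83 to -0.41 (EV) and from -1.99 to -0.46 (sponge), so that 2-fold was not always met.

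**Figure D4:**
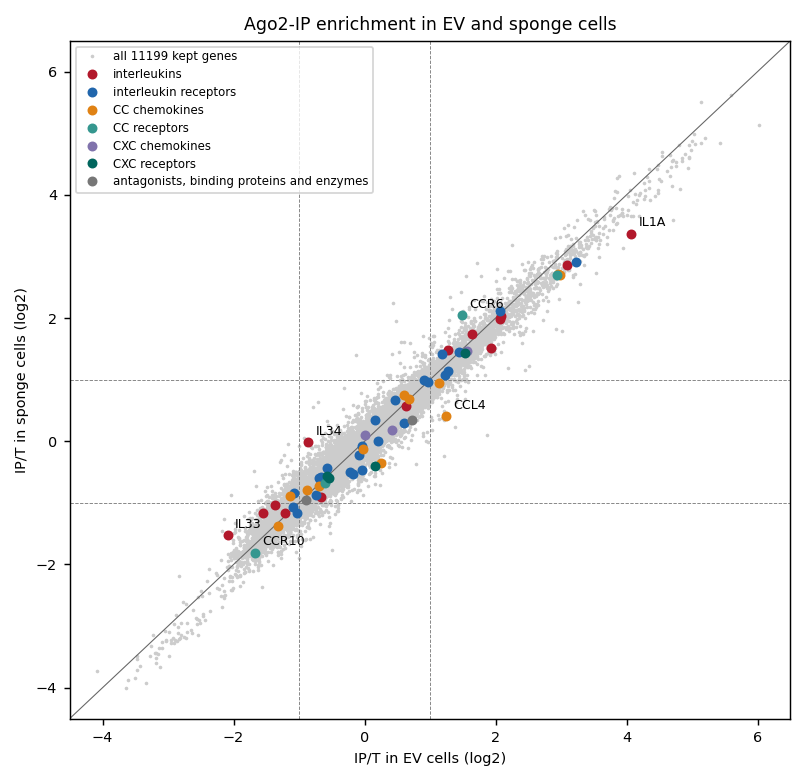
IP/T in sponge cells (vertical axis, log2) against IP/T in EV cells (horizontal axis, log2) for all 11199 kept genes (grey) and the 64 cytokine and receptor genes (coloured by role class), with dashed lines at 2-fold and a solid line of equality. The coloured points follow the grey ones, with CCL4 below the line (1.25 in EV and 0.41 in sponge cells).

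To see whether the sponge went with a different Ago2 association, IP/T was compared between the populations. Across the 64 genes, which are not independent, log2 IP/T in EV and sponge cells correlated with r = 0.979, against 0.981 across all 11199 genes. The change in log2 IP/T was less well measured, with r = 0.363 between its orientations. Of the 21 genes enriched in EV cells, 13 (61.9%) had a lower IP/T in sponge cells in both orientations, against 46.7% of all EV-enriched genes. These 13 were CCL1, CCL2, CCL4, CCR7, CXCL10, CXCR4, IL10RA, IL11, IL13, IL1A, IL1RAP, IL6 and IL7. T of IL1A was above background in no channel, so that its change was not measured. Of the 10 genes depleted in EV cells, 7 (70.0%) had a higher IP/T in sponge cells in both orientations, against 45% of all EV-depleted genes. These 7 were CCL5, IL12RB1, IL17B, IL2RB, IL32, IL33 and IL4. For IL17B and IL33 the IP of EV cells was above background in no channel, so that their change was not measured. IL12RB1 rose by only 0.02 and 0.04 in its orientations. The EV value that chose the genes is also part of the change, which bears on the percentages of members and of all genes, though not necessarily to the same extent. The median signal was 9.32 for the members and 10.47 over all kept genes. How far this choice accounts for the percentages was not tested. No gene had opposite directions of IP/T, in both orientations, in the populations.

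CCL4 had the largest decrease of log2 IP/T among the 64 genes, by 0.86 and 0.82 in its orientations. Its IP signals were 6.95 and 6.95 in EV cells and 6.08 and 5.96 in sponge cells, whereas its T signals were 5.97 and 5.44 in EV cells and 5.84 and 5.39 in sponge cells. The sponge IP values were thus below the EV IP values and the T values overlapped. IL1A followed with a change of -0.70 ± 0.04, which rests on T below background. The changes of CCL2 (-0.29 ± 0.05), IL13 (-0.23 ± 0.01), CCL1 (-0.24 ± 0.05) and CCR7 (-0.25 ± 0.21) were smaller. IL34, a ligand of the CSF1 receptor, had the largest increase, 0.84 ± 0.70, with 0.35 and 1.34 in its orientations.

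A change of 1.5-fold or more with the same sign in both dyes was counted separately in total and in IP RNA. In total RNA, 1 of 64 genes was higher in sponge cells, against 1.09% of all kept genes, and 1 was lower, against 0.884%. In IP RNA, 1 was higher, against 0.625%, and 1 was lower, against 0.384%. Each of these counts is 1.56% of the 64 genes. The median log2 change over the 64 genes was 0.04 ± 0.02 in total RNA and -0.06 ± 0.02 in IP RNA, against -0.01 ± 0.03 and 0.00 ± 0.01 over all kept genes.

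The gene higher in total RNA was IL17RE, a receptor chain for IL17C, with T signals of 7.48 and 7.91 in EV cells and 7.92 and 8.84 in sponge cells. Both sponge values were higher than both EV values, by 0.44 in Cy3 and by 0.93 in Cy5, a log2 change of 0.68 ± 0.35. The gene lower in total RNA was CCR6 (-0.81 ± 1.02), which was above background in no T channel, so that no change of its level can be given. In IP RNA, IL33 was higher (0.91 ± 0.39), with IP above background in no EV channel and in 1 of 2 sponge channels, so that no fold can be given. CCL4 was lower in IP RNA by 0.93 ± 0.08, well above background in all 4 IP channels. None of these calls held under both other background corrections, where 0 genes passed in total RNA and 0 or 1 in IP RNA, and the value of CCL4 reached from -0.99 to -0.18 over the settings tried.

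**Figure D5:**
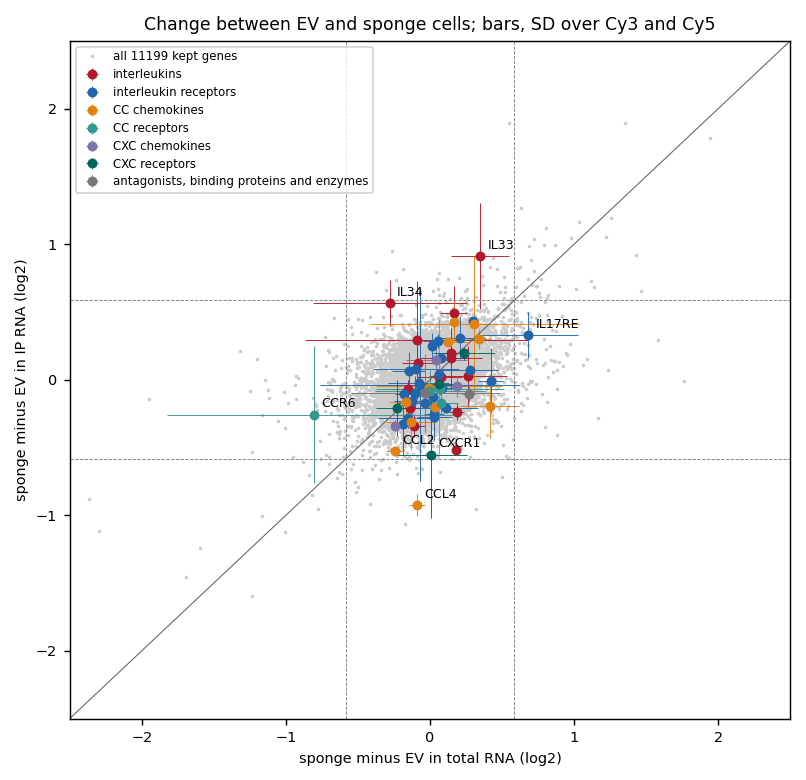
Change from EV to sponge cells in IP RNA (vertical axis, log2) against that in total RNA (horizontal axis, log2) for all 11199 kept genes (grey) and the 64 genes (coloured by role class), with bars for the SD over Cy3 and Cy5, dashed lines at 1.5-fold and a solid line of equality. Most coloured points lie inside the dashed lines, and CCL4 lies below them in IP RNA (-0.93).

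Among genes above background in all 4 T channels and with the same sign in both dyes, the largest increases in total RNA after IL17RE were those of IL9R (0.42 ± 0.08), IL33 (0.35 ± 0.20), CCL17 (0.34 ± 0.08) and IL20RB (0.30 ± 0.02). CCL17 was higher by 0.28 in Cy3 and by 0.40 in Cy5, and its IP RNA was higher by 0.30 ± 0.08, so that IP/T moved by -0.04 ± 0.16. IL20RB, a receptor chain for IL19, IL20 and IL24, was higher in total RNA (T of 12.11 and 12.23 for EV, 12.42 and 12.52 for sponge cells) and in IP RNA (0.43 ± 0.03). With normexp, loess and Aquantile normalisation the changes of IL9R (-0.08) and IL33 (-0.01) in total RNA turned direction, as they did with normexp and quantile normalisation (-0.08 and -0.01). The probe of IL9R may also measure its near-identical pseudogenes.

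Under the same limits, the largest decreases in total RNA were those of CXCL10 (-0.25 ± 0.03), CCL2 (-0.24 ± 0.06), CXCR3 (-0.23 ± 0.15), IL17RA (-0.18 ± 0.07) and IL18R1 (-0.18 ± 0.06). Over the settings tried, they shrank to -0.11 for CXCL10, -0.20 for CCL2, -0.07 for CXCR3, -0.09 for IL17RA and -0.01 for IL18R1. In IP RNA, among genes above background in all 4 IP channels and besides CCL4, CCL2 was lower by 0.53 ± 0.01, IL1A by 0.52 ± 0.02, CXCL10 by 0.34 ± 0.04 and IL13 by 0.34 ± 0.08. CCL5 was higher in IP RNA by 0.43 ± 0.15, IL4 by 0.49 ± 0.20, IL34 by 0.56 ± 0.17 and CCL27, a skin chemokine, by 0.41 ± 0.51. Over the settings tried, these increases shrank to 0.32 for CCL5, 0.11 for IL4, 0.04 for IL34 and 0.02 for CCL27. The decreases in IP RNA shrank to -0.49 for CCL2, -0.14 for IL1A, -0.31 for CXCL10 and -0.22 for IL13. In sponge T labelled with Cy5 fewer spots stood well above background (54.1%) than elsewhere (up to 65.7%), and the part of this in the changes was not tested.

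Of 43 related genes outside the name rule, such as other cytokines, atypical chemokine receptors and signalling adaptors, 25 were kept. In EV cells 10 (40%, against 18.1% of all kept genes) had IP/T of 2 or more and 4 (16%, against 18.8%) had T/IP of 2 or more. The highest were ACKR3, a scavenger receptor of CXCL12 (3.13 ± 0.47), RGS1, which dampens chemokine receptor signals (2.95 ± 0.15), and OSM, a relative of IL6 (2.47 ± 0.16). The lowest were SIGIRR (-1.37 ± 0.22) and TOLLIP (-1.19 ± 0.08), inhibitors of IL1 receptor signalling, and CRLF2 (-1.06 ± 0.35), a receptor chain for TSLP. None of the 25 met the 1.5-fold limit between the populations in total or in IP RNA, where the shares of all kept genes were between 0.384% and 1.09% per direction.

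The 250 bases before the transcription start, from RefSeq promoters of GRCh38.p14, were searched for the NF-kB motif on both strands, because NF-kB is constitutively active in Reed-Sternberg cells and many cytokine promoters carry its site. A promoter was at hand for 49 of the 64 kept genes and for 38 of the 50 detected in no channel. The motif was present in 12 of 49 kept genes with a promoter (24.5%), in 3 of 38 genes with a promoter that were detected in no channel (7.89%), in 11.7% of all kept genes and in 9.57% of all promoters. The TATA box was sought as TATAAA on the gene's strand shortly before the start. It was present in 5 of 49 kept genes of the set (10.2%) and in 10 of 38 undetected ones (26.3%). Of all kept genes 2.29% carried it, and of all promoters 2.59%. A match is a description of letters and not of a bound site. Windows of 30 bases are given for Ago2-enriched CCL1, CXCL10 and IL6 and for depleted IL32, with the motif in capitals, read on the gene's strand: CCL1 at chr17:34363414-34363443 (minus strand), CXCL10 at chr4:76023600-76023629 (minus), IL6 at chr7:22727117-22727146 (plus) and IL32 at chr16:3065294-3065323 (plus).
CCL1: cccacacttaGGGAAGTTCCcaatgcaacc
CXCL10: tctgcaacatGGGACTTCCCcaggaacagc
IL6: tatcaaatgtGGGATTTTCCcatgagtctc
IL32: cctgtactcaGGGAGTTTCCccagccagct
The motif lay at -200 to -191 in CCL1, -122 to -113 in CXCL10, -73 to -64 in IL6 and -99 to -90 in IL32, counted from the start. CXCL10 held a further match at -177 to -168. The same motif thus stood before genes on both sides of IP/T, in 4 of 15 enriched genes with a promoter (26.7%) and in 1 of 6 depleted genes (16.7%).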

How the data were processed

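Per the file headers, the authors extracted spot intensity values with Agilent Feature Extraction (10.7.3.1 in the headers, 10.5.1.1 in the submitters' processing notes), which subtracts background and corrects for the dye. The authors also deposited a table of normalised log2 values, used as an alternative. Both samples of an array carry the same file, from which each sample's labelled channel was read. Control spots and outlier spots were left out, spots of a probe averaged, and log2 intensities quantile normalised over 8 channels (R 4.3.3, limma 3.58.1). No spot was saturated. Of 41000 probes, 22468 were kept, and 15621 of these were named from accessions through the RefSeq table (GRCh38.p14). Protein-coding genes of the rule that no accession reached, 10 in number (such as CCL3, CCR2 and IL15), were not analysed here. Bounds used normexp (offset 50), loess and Aquantile. Genes given with values were chosen by rule: the 12 highest and 8 lowest IP/T past 2-fold in both populations, the 5 largest increases and decreases in total and in IP RNA (above background in all 4 channels of that fraction, same sign in both dyes), the 5 brightest, kept genes of the Reed-Sternberg list, and the 3 highest and 3 lowest related genes; others were added after their values were seen, to complete a list of calls or a family. These members and lists were chosen with earlier results of these data known. Signal over background, not depth, limits the arrays.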

Additional observations from a re-analysis of the deposited data

How the results depend on the processing

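Of the settings tried, the background correction moved the IP/T and T/IP counts most. With normexp, loess and Aquantile, IP/T was 2 or more for 13 genes in EV and 10 in sponge cells, and T/IP for 1 and 1. With normexp and quantile normalisation these were 10, 10, 3 and 1. The shares of all kept genes under these corrections are not given here. Changes of 1.5-fold numbered 0 in total and 0 in IP RNA under the former, and 0 and 1 under the latter. They numbered 1 in total RNA under scaling to the 75th percentile, and 1 in total and 0 in IP RNA where all 8 channels had to be above background. The median log2 change in total RNA was 0.0182 with normexp and quantile normalisation, 0.0790 with the 75th percentile, 0.0621 with all 8 channels and 0.0568 with the probe of highest IP/T. In IP RNA it was -0.0260 with normexp, loess and Aquantile, -0.0141 with normexp and quantile normalisation and -0.0110 with the 75th percentile. The cause was not tested.

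With labels of 1 dye only (without replicate 1 or 2), 0 to 5 genes changed by 1.5-fold in total RNA and 5 to 5 in IP RNA, 19 to 20 and 18 to 21 had IP/T of 2 or more in EV and sponge cells, 9 to 9 and 8 to 8 had T/IP of 2 or more, and the medians were 0.18 to 0.34 and 0.05 to 0.13 for IP/T and 0.0395 to 0.0627 and -0.0583 to -0.0300 for the changes in total and IP RNA. Of the other values, 82 for counts and medians stayed within their limits, and of those for single named genes 766 stayed within 1 SD and 176 moved further. For named genes, the log2 IP/T values past 2-fold in a population kept their sign wherever they could be computed. This held for 44 of 44 values in most settings, 42 of 42 with the authors' normalised values and 35 of 35 with all 8 channels. CCL4 in sponge cells, not past 2-fold and so not among these, reached from -0.004 to 0.57. A kept sign does not mean that 2-fold was kept. No paired analysis was possible because the numbers 1 and 2 mark dyes of the same RNA. IL1A, IL7, CCL4, CCR6, IL33 and IL17B are limited by signals near background. The EV log2 IP/T of IL13, IL1RAP, CCL1, IL11, IL31, CCR10, IL4, IL17RA and IL12RB1 also shrank under some settings, as given above.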
